A study of Mus musculus with 18 samples.

Results

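Messenger RNA of the infarcted left ventricle (LV) was compared between mice given liraglutide and mice given PBS, a saline buffer without drug. The comparison uses the 6 libraries that the labels assign to the infarcted region, 3 per treatment, of 18 libraries in the study; the other 12 are non-infarcted LV and atria of mice under the same 2 treatments. All animals were male C57BL/6J mice in which the left anterior descending coronary artery was tied, and tissue was taken on day 3 after ligation, so the PBS group is itself infarcted. The libraries are biological replicates per the labels, and p-values measure the spread between these 6 samples. The sources used here do not give age, dose, schedule, the start of treatment or the number of animals, and sham-operated hearts, which the labels mention, are not analysed here.

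Liraglutide is a long-acting agonist of the receptor for glucagon-like peptide 1 (GLP-1), a gut hormone that strengthens insulin release after meals. The receptor couples to Gs, adenylyl cyclase makes cyclic AMP (cAMP), and protein kinase A phosphorylates the transcription factor CREB, which binds cAMP response elements in promoters. Around day 3 an infarct in the mouse is in its inflammatory phase: dead cardiomyocytes are cleared by neutrophils, monocytes and macrophages, while fibroblasts and endothelial cells begin to divide and to lay down scar matrix. In bulk tissue, fewer cells of a type and less RNA per cell cannot be told apart.

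Because CREB acts through a known DNA word, the full cAMP response element TGACGTCA, which reads the same on both strands, was searched in the RefSeq promoter windows of GRCm38.p6, from 250 bases before to 50 bases after each gene start. It was found in 588 of 32851 windows (1.79%), and in 360 of the 10301 genes tested here that have a window (3.49%). Below are 60 bases of the windows of 3 genes described later, 2 early response genes and 1 of the genes with the smallest p-values, 5′ to 3′ on the gene's strand, with the element in capitals. The stretches lie at chr5:91139512-91139571 (plus strand, Areg), chr17:26508582-26508641 (minus strand, Dusp1) and chr5:142960284-142960343 (plus strand, Fscn1). A match describes the letters and says nothing of binding.
Areg: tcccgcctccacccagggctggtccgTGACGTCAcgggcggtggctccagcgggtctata
Dusp1: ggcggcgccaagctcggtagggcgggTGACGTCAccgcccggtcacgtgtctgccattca
Fscn1: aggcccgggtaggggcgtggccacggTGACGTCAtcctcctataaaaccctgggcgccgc

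Library totals were 10850737, 11181101 and 8211804 counts for liraglutide replicates 1 to 3 and 10034544, 10772531 and 4280459 for PBS replicates 1 to 3. Levels are CPM, the count scaled to the library total, and 3 counts, taken as the floor, equal 0.268 to 0.701 CPM in these libraries. A pair of libraries stood apart from the rest. PBS replicate 3, the shallowest, lay at 28.8 on the first principal component (29.4% of variance), the other 5 at -11.9 to -0.956. Liraglutide replicate 3 lay at -20.3 on the second (22.4%), the other 5 at -6.51 to 12.9. For most gene lists, values with single libraries left out stand beside the median.

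The label of infarcted tissue was borne out by several gene lists, though not by all. In PBS animals 6077 of 12831 genes differed from non-infarcted LV at an adjusted p under 0.05 with edgeR (47.4%), 3292 higher (25.7%) and 2785 lower (21.7%). Of 19 contractile and calcium-handling genes of cardiomyocytes 18 fell, of 20 endothelial markers 20 rose, and of 18 myofibroblast and fibrillar matrix genes 15 rose. Fewer rose among 13 neutrophil markers (3), 14 markers of recruited monocytes and macrophages (6) and 6 antigen presentation genes (0). In PBS animals the 19 cardiomyocyte genes still summed to 116408 to 124650 CPM in the infarct, against 147348 to 161984 outside it. Myh6, a cardiomyocyte myosin, had the most counts in each infarcted library. Defining atrial genes were low: Myl7, the atrial myosin light chain, had 0 to 3.59 CPM in the 6 libraries, and Sln, an atrial regulator of the calcium pump, 0.234 to 1.16. The comparison of infarcted with non-infarcted LV uses the same 3 infarcted PBS libraries as the treatment comparison, so the signs of the 2 fold changes of a gene are not independent and are not set against each other below.

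With liraglutide, no gene of the infarcted LV passed the threshold. Of 12988 genes tested with edgeR's quasi-likelihood test, 0 (0%) had a Benjamini-Hochberg adjusted p under 0.05, and the smallest was 0.243. At an unadjusted p under 0.05 there were 681 genes (5.24%), 312 higher (2.40%) and 369 lower (2.84%) with liraglutide. The CPM ranges of the groups did not overlap for 1259 genes (9.69%), liraglutide being higher for 528 (4.07%) and lower for 731 (5.63%). Fold changes were above 0 for 6569 genes (50.6%), with a median of 0.0022 on the log2 scale. DESeq2 called 1 gene, Mtus2, and limma's voom with quality weights 0.

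The intervals bound, gene by gene, what the comparison could have missed, less tightly for genes of low count or wide spread. Among 10202 genes with a mean count of 50 or more, the 95% interval of the fold change lay within 2-fold in either direction for 10123 (99.2%) and within 1.5-fold for 9385 (92.0%). The estimated change was over 1.5-fold for 36 of them and over 2-fold for 2. Their median absolute log2 fold change was 0.08. For the same genes, infarcted against non-infarcted LV in PBS animals gave 2345 over 1.5-fold, 958 over 2-fold and a median of 0.30. Over all 12988 tested genes the interval for liraglutide lay within 2-fold for 11941. It did so for 20 of 20 endothelial markers, but for 3 of 13 neutrophil markers and 8 of 18 cytokines and chemokines. Of 18 cell cycle genes it did so for 10, so 2-fold changes of many members of these 3 lists were not excluded. The plot of fold changes against mean count sets the narrow band of the treatment beside the wide one of the infarct.

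**Figure D1:**
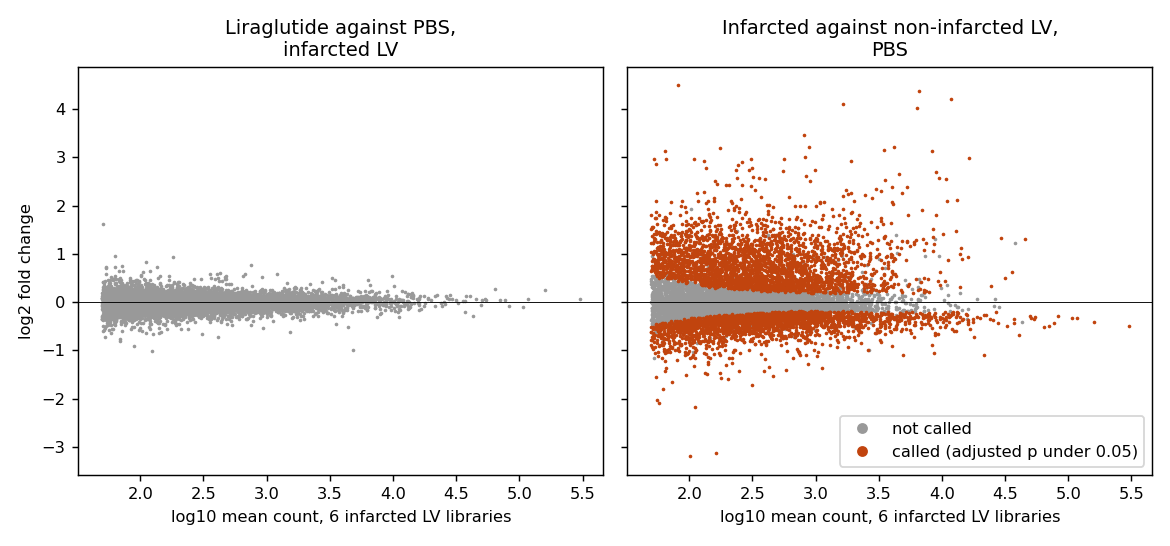
Log2 fold change of each gene with a mean count of 50 or more (vertical axis) against the log10 of its mean count over the 6 infarcted LV libraries (horizontal axis), for liraglutide against PBS in infarcted LV (left) and for infarcted against non-infarcted LV in PBS animals (right). Points past an adjusted p of 0.05 are coloured; there are 0 on the left, and 36 points on the left lie beyond 1.5-fold against 2345 on the right.

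The 12 genes with the smallest p in the direction of liraglutide fell into several of the gene lists used here or into none. Mtus2, which encodes a microtubule-binding protein and spans chr5:147957320-148316065 on the plus strand (GRCm38), had 166, 151 and 140 CPM under liraglutide against 114, 96.8 and 94.4 under PBS. Its log2 fold change was 0.59 (SE 0.0977, edgeR adjusted p = 0.243). All treated libraries lay above all controls, as the choice required. Dusp18, a dual-specificity phosphatase (chr11:3895240-3901296, plus), had 59.4, 57.9 and 47.0 against 36.2, 34.6 and 40.6 CPM (log2 fold change 0.59, SE 0.110, edgeR adjusted p = 0.297). Serpina3n, an inhibitor of serine proteases made in the acute-phase response (chr12:104406729-104414329, plus), had 76.8, 100 and 80.7 CPM with liraglutide. In the PBS libraries it stood at 58.0, 58.1 and 58.9 CPM. The SD was 12.6 CPM under liraglutide and 0.475 under PBS, and the choice required groups without overlap. Its log2 fold change lay between 0.42 and 0.66 over all settings, and it did not pass the threshold in the main fit.

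Interferon-inducible genes were among the 12. Gbp6, a guanylate-binding GTPase, had 58.1, 46.7 and 51.6 CPM under liraglutide against 27.2, 37.1 and 42.5 under PBS (log2 fold change 0.59, SE 0.129). Ifitm1, an interferon-induced membrane protein, had 8.94, 8.68 and 11.2 against 5.68, 6.03 and 5.14 CPM (0.75, SE 0.170), the largest fold change of the 12. Of the 15 interferon-stimulated genes on the wider list 10 were above 0 and 5 below, the median was 0.04, and 0 had an unadjusted p under 0.05. That direction depended on single libraries: leaving out liraglutide replicate 3 left 4 above 0 (median -0.10), leaving out PBS replicate 1 left 7 (-0.05), and leaving out liraglutide replicate 2 gave 13 (0.17). Bnip3, a receptor for the removal of mitochondria that hypoxia and FOXO factors induce, had 259, 284 and 251 against 206, 203 and 209 CPM (0.38, SE 0.0858). Mylip, the ubiquitin ligase that degrades the LDL receptor, had 36.3, 33.1 and 45.3 against 27.5, 27.5 and 28.0 CPM (0.47, SE 0.108). The chemokine Cxcl14 had 55.6, 39.0 and 42.0 against 32.0, 26.5 and 34.6 CPM (0.59, SE 0.136). EdgeR adjusted p-values of these 5 genes were 0.403 to 0.451.

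Genes of cilia and membranes made up the rest. Ift81, a part of the intraflagellar transport complex that carries tubulin, had 53.0, 52.8 and 45.7 CPM under liraglutide against 39.96, 35.3 and 32.2 under PBS (log2 fold change 0.50, SE 0.107). Armc2, an armadillo repeat protein of motile axonemes, had 50.2, 50.7 and 43.4 against 35.2, 34.2 and 35.7 CPM (0.48, SE 0.0983). Ano10, of the anoctamin family of membrane proteins, had 56.9, 56.2 and 63.2 against 44.8, 38.6 and 44.6 CPM (0.48, SE 0.0930). In Abcb1a, the drug efflux pump P-glycoprotein of endothelium, the treated libraries held 58.1, 50.1 and 56.6 CPM and the controls 41.0, 41.4 and 39.7 (0.44, SE 0.0859). Another intraflagellar transport gene, Ift122, stood on the opposite side, and the family was not examined as a list.

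On the lower side, the 12 genes of smallest p included 3 of the cytoskeleton and 3 of the extracellular matrix, beside 6 of other kinds. Tuba1a, an alpha-tubulin of growing cells, had 70.9, 72.2 and 77.1 CPM under liraglutide against 93.2, 108 and 88.5 under PBS (log2 fold change -0.39, SE 0.0861). Fscn1, the actin bundler fascin whose promoter stretch is printed above, had 43.5, 48.0 and 53.6 against 67.2, 77.6 and 56.8 CPM (-0.48, SE 0.109). Nes, the intermediate filament nestin of dividing and repairing cells, had 112, 90.2 and 116 against 145, 150 and 125 CPM (-0.40, SE 0.0955). Liraglutide libraries lay below PBS libraries throughout, as the choice required. For Fscn1 and Nes the gap between the nearest libraries was small beside the spread within each group.

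Nid2 (nidogen, a linker of laminin and collagen IV) had 39.9, 43.7 and 52.7 CPM under liraglutide against 60.6, 67.9 and 57.7 under PBS (log2 fold change -0.45, SE 0.103). Papln, a papilin-type matrix protein, had 25.9, 25.04 and 25.5 against 31.1, 37.4 and 33.4 CPM (-0.40, SE 0.0978). For Adamtsl2, which binds fibrillin microfibrils, the values were 46.5, 48.8 and 53.0 against 56.7, 74.7 and 65.6 CPM (-0.40, SE 0.0985). The lack of overlap for these 3 secreted matrix proteins was again required by the choice. Cldn5, the tight junction claudin of endothelium (chr16:18776847-18778262, plus), had 67.3, 59.9 and 68.7 against 84.6, 86.2 and 81.5 CPM (-0.36, SE 0.0785). Ccnd1, cyclin D1, which drives entry into the cell cycle (chr7:144929931-144939925, minus), had 67.6, 63.3 and 75.0 against 79.3, 114 and 96.5 CPM (-0.48, SE 0.107). Ift122 had 15.9, 19.2 and 20.5 against 26.2, 31.7 and 23.6 CPM (-0.57, SE 0.128). The remaining 3 were the stress-induced regulator Nupr1 (-0.64, SE 0.148), the imprinted gene Mest (-0.77, SE 0.189) and Sez6l2 (-0.61, SE 0.154). EdgeR adjusted p-values of the 12 ran from 0.403 to 0.517. Over the 15 alternative analyses all 24 genes kept their sign, which their choice for non-overlapping groups largely fixed in advance. The adjusted p of Mtus2 depended on the setting: it was 0.00251 with DESeq2, 1.27e-05 with edgeR without a filter on low counts and 0.9998 with edgeR without PBS replicate 2.

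**Figure D2:**
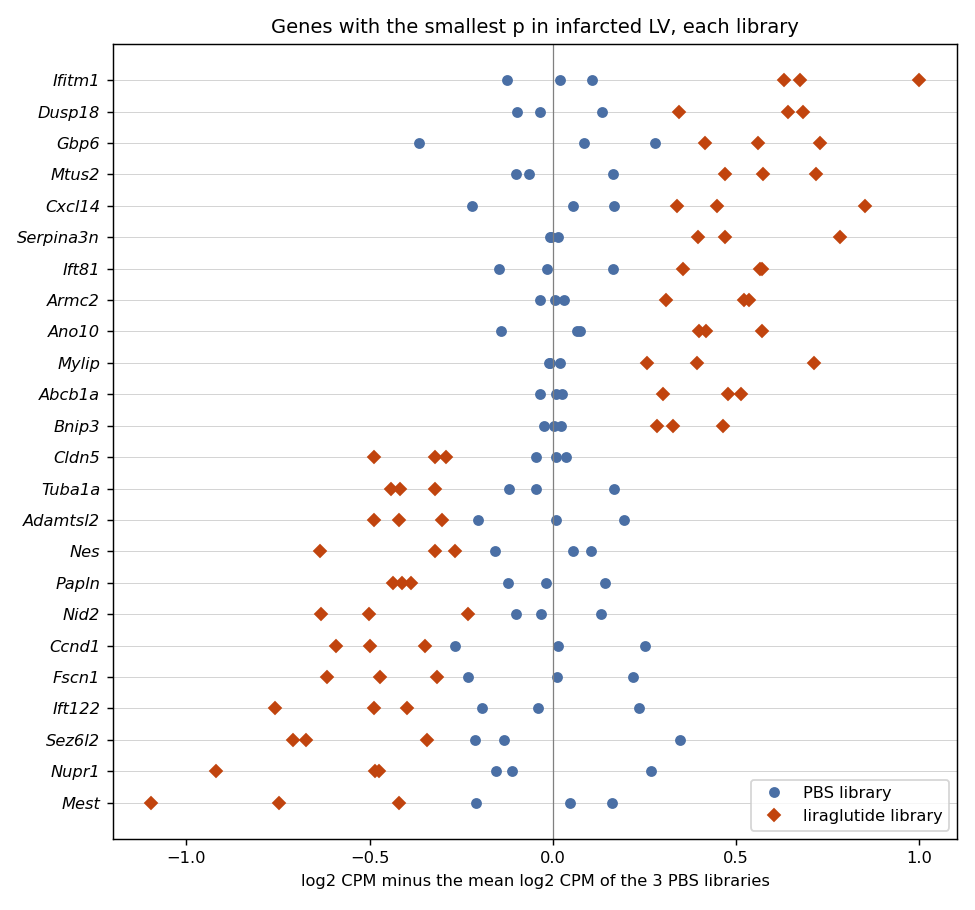
Level of the 24 genes with the smallest p-values in each infarcted LV library, as log2 CPM minus the mean log2 CPM of the 3 PBS libraries (horizontal axis), with 1 row per gene; diamonds are liraglutide libraries and circles PBS libraries. The genes were chosen for small p-values and non-overlapping groups, so the separation is a property of the choice, while the distance between groups and the spread within each can be read for every gene.

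The receptor that liraglutide binds was at the limit of detection. Glp1r gave 1, 0 and 0 counts under liraglutide against 0, 0 and 0 under PBS, below the floor of 3 counts in each. The related receptor genes for gastric inhibitory polypeptide (Gipr, with 8, 7 and 9 counts against 11, 8 and 2) and glucagon (Gcgr, with 1, 5 and 0 against 1, 3 and 0) were too low to test. These counts show that receptor mRNA was not detectable at this depth, not that the receptor was absent from every cell.

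Downstream of the receptor, 21 members of the list of incretin and cAMP machinery were tested, 12 with a fold change above 0 and 9 below, and the median was 0.02 (-0.01 without PBS replicate 2 to 0.08 without liraglutide replicate 3). Gnas, the Gs alpha subunit, differed by -0.02 (95% interval -0.20 to 0.16), and Prkaca, a catalytic subunit of protein kinase A, by -0.09 (SE 0.0816). Of the list, 2 members had an unadjusted p under 0.05, 1 in each direction. Pde4b, a phosphodiesterase that degrades cAMP, had 424, 442 and 581 CPM under liraglutide against 380, 399 and 352 under PBS (log2 fold change 0.36, SE 0.105, edgeR adjusted p = 0.620), without overlap. The cyclase Adcy7 had 33.6, 27.4 and 41.2 against 34.8, 48.7 and 48.4 CPM (-0.35, SE 0.143, edgeR adjusted p = 0.939), with overlap.

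Early genes that cAMP can induce were high in the infarct under both treatments. Summed over 15 genes they reached 5226, 5780 and 6727 CPM under liraglutide against 6160, 4941 and 5266 under PBS, against 840 to 1735 in non-infarcted LV of PBS animals. Within the infarct 9 had a fold change above 0 and 6 below, with a median of 0.05, and the direction turned on single libraries. Without liraglutide replicate 3, 5 lay above 0, the median was -0.09 and 4 had an unadjusted p under 0.05 on the lower side. Without PBS replicate 2 the median was -0.03, without liraglutide replicate 1 it was 0.14, and without PBS replicate 1, 5 had an unadjusted p under 0.05 on the higher side. Fos, a subunit of AP-1, had 1139, 1320 and 1698 against 1367, 1053 and 1161 CPM (log2 fold change 0.22, SE 0.142), and Nr4a1, an orphan nuclear receptor, 426, 393 and 589 against 539, 383 and 413 CPM (0.08, SE 0.167). The groups overlapped for both. Dusp1, a phosphatase that ends MAP kinase signals and carries the element printed above, had 330, 330 and 428 against 364, 343 and 352 CPM (0.05, SE 0.0968). Areg, an EGF-family ligand, was near the floor at 0.645, 0.805 and 1.22 against 1.20, 1.21 and 0.234 CPM. Ppargc1a, the coactivator of mitochondrial biogenesis, was the 1 member with an unadjusted p under 0.05, at 247, 261 and 209 against 209, 181 and 206 CPM (0.28, SE 0.103, edgeR adjusted p = 0.851). Of the 360 tested genes with the full element 189 lay above 0 and 171 below, and the median was 0.01. An unadjusted p under 0.05 was found for 12 of them (3.33%), against 5.24% of all tested genes.

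Insulin signalling and FOXO target genes leaned upwards. Over all tested genes 50.6% lay above 0, 2.40% were higher at an unadjusted p under 0.05 and 4.07% were higher without overlap. Of 20 tested in this list, 15 had a fold change above 0 and the median was 0.09. In that direction 3 had an unadjusted p under 0.05, all without overlap. These were Bnip3, Klf15, a metabolic transcription factor of fasting, with 35.9, 40.5 and 33.5 CPM against 32.1, 28.3 and 32.5 (log2 fold change 0.27, SE 0.110, edgeR adjusted p = 0.932), and Irs2. Irs2, the adaptor that carries signals from insulin and IGF receptors, had 208, 218 and 238 CPM under liraglutide against 202, 194 and 186 under PBS (0.20, SE 0.0820, edgeR adjusted p = 0.936). Leaving out liraglutide replicate 2 gave the list a median of 0.01, leaving out PBS replicate 2 one of 0.02, and leaving out liraglutide replicate 3 one of 0.15.

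Most enzymes that break down fatty acids had fold changes slightly below 0. Of all tested genes 5.63% lay lower without overlap and 2.84% were lower at an unadjusted p under 0.05. In this list of 20 genes 15 were below 0, with a median of -0.10, 9 lay lower without overlap, and 5 of them had an unadjusted p under 0.05. The 5 became 1 without PBS replicate 3, 2 without PBS replicate 1, and 3 without PBS replicate 2 or liraglutide replicate 3, and the median was -0.04 without liraglutide replicate 3. Acaa2, the thiolase of the last step of beta-oxidation, had 852, 761 and 770 CPM under liraglutide against 1006, 876 and 969 under PBS (log2 fold change -0.25, SE 0.0908). Decr1, needed for unsaturated fatty acids, had 423, 397 and 388 against 474, 464 and 486 CPM (-0.22, SE 0.0810). The carnitine carrier Slc25a20 (-0.23), the dehydrogenases Hadh (-0.18) and Acadvl (-0.19) completed the 5, and edgeR adjusted p-values were 0.851 to 0.941. On the other side, with an unadjusted p under 0.05, were Ppargc1a and Lpl, the lipase that takes fatty acids from lipoproteins, which had 7644, 7702 and 7201 against 5864, 6218 and 6838 CPM (0.27, SE 0.0954, edgeR adjusted p = 0.827). Across 23 respiratory chain subunits the median was 0.02 (-0.01 to 0.06 with single libraries left out) and 0 had an unadjusted p under 0.05. Across 20 glycolysis and hypoxia genes it was -0.01 (-0.04 to 0.03) with 1 in each direction.

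Cardiomyocyte genes were alike in sum. The 19 contractile and calcium genes added up to 125846, 129361 and 108187 CPM under liraglutide against 124650, 116408 and 120295 under PBS, lowest in liraglutide replicate 3. Their median fold change was -0.04, with 7 above 0 and 12 below. Without liraglutide replicate 3 these became 13 and 6 with a median of 0.03, and without liraglutide replicate 2 they were 4 and 15 with a median of -0.12. Atp2a2, the SERCA pump that refills the sarcoplasmic reticulum, had 19025, 20365 and 16623 against 15930, 15231 and 16471 CPM (log2 fold change 0.25, SE 0.108, edgeR adjusted p = 0.939), with no overlap. The giant spring protein gene Ttn had 4460, 4485 and 3811 against 4408, 5101 and 6330 CPM (-0.29, SE 0.123), with overlap. The fetal and stress list of 12 genes had a median of 0.02 (-0.07 without liraglutide replicate 2 to 0.13 without liraglutide replicate 1). In it Acta1, the skeletal actin that stressed ventricle expresses, had 331, 448 and 302 CPM under liraglutide against 482, 867 and 850 under PBS (-0.998, SE 0.285, edgeR adjusted p = 0.851). Its groups did not overlap. Nppa, the atrial natriuretic peptide gene, had 262, 352 and 329 against 488, 512 and 303 CPM, PBS replicate 3 lying within the treated range.

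Inflammatory genes varied widely between replicate libraries. Neutrophil markers, 13 of 17 tested, had 12 fold changes above 0 and a median of 0.24, with 0 at an unadjusted p under 0.05 and a median within-group SD of 0.76 log2, against 0.15 over all genes. Their summed level was 219, 246 and 197 CPM under liraglutide against 137, 176 and 285 under PBS, so PBS libraries held both the lowest and the highest. S100a8, a calcium-binding protein of neutrophils, had 23.9, 23.5 and 16.6 against 7.97, 11.9 and 34.6 CPM. Without PBS replicate 3 the list's median was 0.85 and 8 members had an unadjusted p under 0.05, while without PBS replicate 1 the median was 0.06. Leaving out replicate 2 of either group gave 0.09 and leaving out liraglutide replicate 3 gave 0.40, so libraries of both groups moved the size of the difference.

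Cytokines and chemokines, 18 tested, had 12 fold changes below 0 and a median of -0.12. Their sum was 362, 336 and 698 CPM under liraglutide against 432, 545 and 539 under PBS, highest in liraglutide replicate 3. Il6 had 60.5, 55.2 and 144 against 72.4, 119 and 99.5 CPM (log2 fold change -0.17, SE 0.456), and the neutrophil attractant Cxcl1 64.9, 58.2 and 162 against 81.2, 109 and 93.7 CPM (-0.01, SE 0.459). Without liraglutide replicate 3 the list's median was -0.34, 15 of 18 members lay below 0 and 7 of these had an unadjusted p under 0.05. Other omissions removed or turned the direction: the median was 0.04 without PBS replicate 3 (10 above 0) and 0.03 without liraglutide replicate 2 (11 above 0), and without liraglutide replicate 1, 9 lay on each side. With all libraries 1 member of the list had an unadjusted p under 0.05, Ccl12, a monocyte attractant, higher at 3.59, 3.13 and 2.31 against 1.99, 1.86 and 0.701 CPM (0.87, SE 0.319, edgeR adjusted p = 0.851).

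Markers of recruited monocytes and macrophages summed to 1228, 1381 and 1322 CPM under liraglutide against 1376, 1321 and 1448 under PBS, against 236 to 333 in non-infarcted LV of PBS animals. Of 14 tested, 7 lay on each side of 0, with a median of 0.07 that became 0.22 without PBS replicate 3. Gpnmb, a glycoprotein of lipid-laden macrophages, had 4.15, 3.13 and 5.11 against 1.49, 2.23 and 2.57 CPM (log2 fold change 1.03, SE 0.278, edgeR adjusted p = 0.558), without overlap. Chil3, a chitinase-like protein of alternatively activated macrophages, had 2.95, 1.43 and 4.75 against 0.797, 1.21 and 2.57 CPM (1.17, SE 0.461), with overlap. Resident macrophage markers had 7 of 9 below 0 (5 without liraglutide replicate 3, and 6 without liraglutide replicate 1 or PBS replicate 2), among them the folate receptor Folr2 at 12.1, 10.02 and 8.89 against 12.6, 13.9 and 13.5 CPM (-0.34, SE 0.147). In the acute-phase and complement list 13 of 16 were above 0 and the median was 0.16, which was 0.04 without PBS replicate 1 and 0.24 without PBS replicate 3. Besides Serpina3n, the members with an unadjusted p under 0.05 were Saa3, C3 and C1ra, while 2.40% of all tested genes were higher at that p. C3, the central complement protein, had 447, 412 and 377 against 280, 354 and 399 CPM (0.28, SE 0.112), and Saa3, serum amyloid A, stood between 0.464 and 1.75 CPM, close to the floor. Lymphocyte markers were mostly too low to test (4 of 12 tested).

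Matrix genes of the forming scar stood lower with liraglutide in most members. Of 18 myofibroblast and fibrillar matrix genes 15 had fold changes below 0, with a median of -0.22, and 6 had an unadjusted p under 0.05 in that direction against 2 in the other. Among all tested genes 2.84% were lower and 2.40% higher at that p. Col1a1, a chain of type I collagen, had 212, 180 and 169 CPM under liraglutide against 219, 267 and 232 under PBS (log2 fold change -0.34, SE 0.0972, edgeR adjusted p = 0.613). Ltbp2, a latent TGF-beta binding protein of microfibrils, had 8.57, 8.68 and 9.99 against 12.5, 26.8 and 14.7 CPM (-1.01, SE 0.261, edgeR adjusted p = 0.613). Loxl2, which cross-links collagen, had 45.4, 41.1 and 44.9 against 48.9, 60.7 and 55.1 CPM (-0.31, SE 0.0912). PBS replicate 2 was the highest library for all 3. Col1a2 (-0.29), Col3a1 (-0.28) and Sparc (-0.31) completed the 6, with overlap. On the other side were Timp1, an inhibitor of matrix metalloproteinases (0.36), and Thbs2 (0.26). The sum of the list was 2479, 2198 and 2529 CPM against 2507, 3308 and 2808, and its median without PBS replicate 2 was -0.15, with 14 of 18 members below 0, 3 of them with an unadjusted p under 0.05. Without liraglutide replicate 2, 12 of 18 lay below 0, with a median of -0.16. With all 18 libraries in the fit 15 of 18 lay below 0, but 1 member was lower at an unadjusted p under 0.05.

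Basement membrane genes lay mostly on one side. Of 14 tested, 13 lay below 0, with a median of -0.13, and without each library in turn 12 or 13 did, with medians of -0.16 to -0.08 (the latter without PBS replicate 2). Hspg2, the heparan sulfate proteoglycan perlecan, had 1131, 1030 and 1117 CPM under liraglutide against 1249, 1416 and 1414 under PBS (log2 fold change -0.30, SE 0.0844, edgeR adjusted p = 0.613). Col15a1, at the edge of vascular basement membranes, had 276, 209 and 232 against 274, 293 and 286 CPM (-0.24, SE 0.0924), and Lama2, a laminin chain of muscle, 194, 182 and 212 against 200, 229 and 302 CPM (-0.29, SE 0.119). With Nid2 these were the 4 at an unadjusted p under 0.05, all lower, beside 2.84% of all tested genes. The sums did not overlap, at 6652, 6296 and 6526 against 6997, 7770 and 7234 CPM. Sums of microtubule genes (2223 to 2264 against 2300 to 2442 CPM) and resident macrophage markers (407 to 419 against 421 to 448) were also lower without overlap. The sum of lung epithelium genes was higher without overlap (0.365 to 1.01 against 0.186 to 0.234 CPM). Among single genes, 9.69% of all tested did not overlap. Markers of resting fibroblasts did not share the direction of the basement membrane genes: 6 of 11 lay above 0 and their median was 0.05 (-0.02 without liraglutide replicate 3). Of 14 genes of TGF-beta signalling 9 lay below 0 with a median of -0.08 (0.01 without liraglutide replicate 1 and -0.15 without liraglutide replicate 3), among them Tgfb1 at 43.9, 38.5 and 46.6 against 48.3, 56.0 and 47.4 CPM (-0.23, SE 0.0936).

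Genes of dividing cells stood lower in part. Of 24 cell cycle genes 18 were tested, 11 lay below 0 with a median of -0.30, and 5 had an unadjusted p under 0.05, each lower without overlap. For comparison, 2.84% of all tested genes were lower at that p and 5.63% lower without overlap. Mki67, the proliferation antigen Ki-67, had 5.35, 4.47 and 6.94 CPM under liraglutide against 7.57, 12.5 and 8.64 under PBS (log2 fold change -0.81, SE 0.211, edgeR adjusted p = 0.558). Top2a, the topoisomerase of dividing cells, had 3.96, 4.11 and 3.04 against 6.58, 7.05 and 4.67 CPM (-0.74, SE 0.216). The other 3 were Ccnd1, its relative Ccnd3 with 49.8, 46.8 and 47.0 against 54.8, 66.2 and 55.8 CPM (-0.29, SE 0.0904), and Birc5 (-0.94, SE 0.399), a survivin of mitosis that stood between 0.461 and 1.67 CPM. PBS replicate 2 was the highest library for all 5, and without it the list's median was -0.01. Without PBS replicate 1 the median was -0.47. Cdkn1a, the p21 inhibitor of cyclin-dependent kinases, had 435, 469 and 417 against 396, 361 and 311 CPM (0.32, SE 0.102, edgeR adjusted p = 0.739), without overlap.

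Microtubule genes split. Of 18 tested 13 lay below 0, with a median of -0.14 (-0.07 without PBS replicate 2 and -0.08 without liraglutide replicate 1). Lower without overlap were 6, and 5 of these had an unadjusted p under 0.05. The shares of all tested genes were 5.63% lower without overlap and 2.84% lower at that p. Tuba1b, an alpha-tubulin found in most cells, had 96.2, 84.2 and 99.2 CPM under liraglutide against 111, 118 and 100 under PBS (log2 fold change -0.23, SE 0.0845). Map1b, a microtubule-associated protein of growing processes, had 27.0, 30.3 and 30.8 against 36.1, 38.6 and 37.6 CPM (-0.34, SE 0.0954). Tubb2b (-0.45, SE 0.179), Tuba1a and Fscn1 were the other 3, and Mtus2 was the 1 member higher at that p. Fscn1 is on the list although it bundles actin. Tuba1a, Fscn1 and Mtus2 are leading genes described above, so their counts here add no new genes. The list was chosen with earlier results of these data known, so the shares beside it make no test. EdgeR adjusted p-values of the tubulins Tuba1b and Tubb2b were 0.872 and 0.930.

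**Figure D3:**
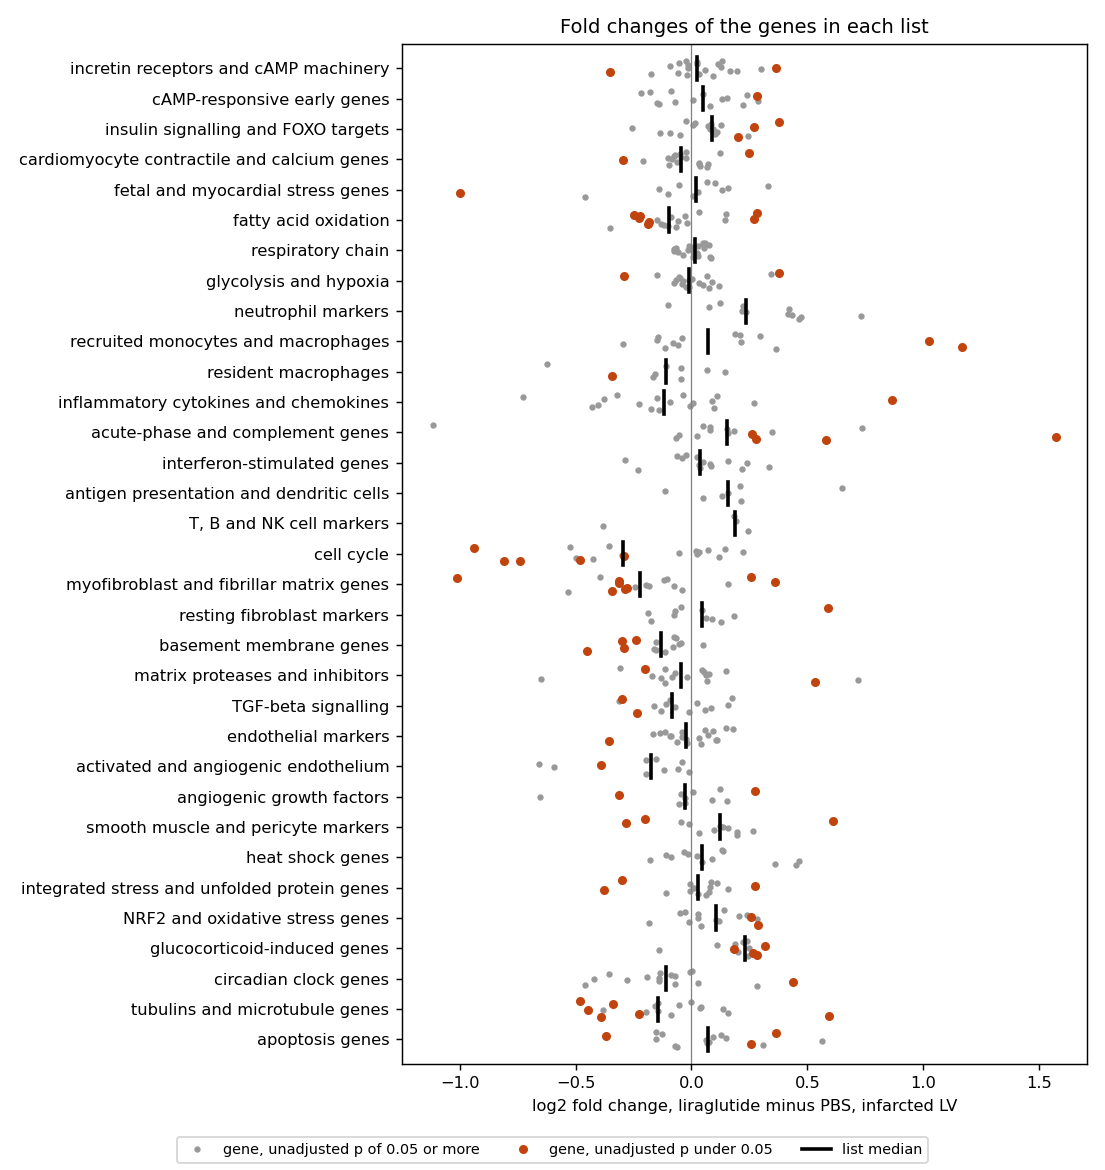
Log2 fold change, liraglutide minus PBS in infarcted LV, of every tested member of each gene list (1 point per gene; coloured points have an unadjusted p under 0.05) with the list's median as a black bar. Medians lie between -0.30 for the cell cycle and 0.24 for neutrophil markers, beside 0.0022 over all 12988 genes.

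Vessel genes were close between the groups. Of 20 endothelial markers 9 lay above 0 and 11 below, with a median of -0.02 (-0.06 without liraglutide replicate 3 to 0.05 without liraglutide replicate 2), and Cldn5 was the 1 with an unadjusted p under 0.05. Pecam1, the endothelial adhesion molecule CD31, had 431, 429 and 489 CPM under liraglutide against 411, 480 and 434 under PBS (log2 fold change 0.04, SE 0.0853), and Cdh5, VE-cadherin, 494, 474 and 547 against 532, 541 and 471 CPM (-0.02, SE 0.0874). All 10 genes of activated or sprouting endothelium lay below 0, with a median of -0.17, though leaving out single libraries gave 7 to 10, with medians of -0.09 without liraglutide replicate 1 to -0.30 without liraglutide replicate 3. Apln, the apelin peptide of endothelial tip cells, had 15.5, 14.4 and 16.3 against 17.6, 23.5 and 19.6 CPM (-0.39, SE 0.125, edgeR adjusted p = 0.727), without overlap. Among 11 angiogenic growth factors the insulin-like growth factor Igf2 was higher (0.28, SE 0.0925) and Pdgfa lower (-0.31, SE 0.129), while Vegfa differed by -0.05 (SE 0.0924). Of 13 smooth muscle and pericyte markers 9 lay above 0 with a median of 0.12 (-0.03 without liraglutide replicate 1 and 0.24 without liraglutide replicate 2). At an unadjusted p under 0.05, 1 was higher and 2 lower, beside 2.40% and 2.84% of all tested genes. Fold changes ran from -0.28 to 0.61. The lowest was Cspg4, the pericyte proteoglycan NG2, with 40.4, 34.0 and 37.9 against 45.4, 48.5 and 42.8 CPM (-0.28, SE 0.0918).

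Among stress programmes, glucocorticoid-induced genes leaned upwards: 11 of 12 lay above 0 with a median of 0.23, and 10 or 11 did without each library in turn, with medians of 0.12 (without liraglutide replicate 2) to 0.27. The 4 with an unadjusted p under 0.05 were Cdkn1a, Klf9, Zbtb16 and Tsc22d3, where PBS replicate 3 decided the count, which was 0 without it. At that p 2.40% of all tested genes were higher. Klf9, a zinc finger target of the glucocorticoid receptor, had 239, 267 and 258 CPM under liraglutide against 231, 224 and 224 under PBS (log2 fold change 0.18, SE 0.0830, edgeR adjusted p = 0.941). Tsc22d3, the anti-inflammatory protein GILZ, had 186, 163 and 256 against 172, 173 and 153 CPM (0.28, SE 0.129). Of 15 genes of the oxidative stress response under NRF2, 11 lay above 0 with a median of 0.11. Without PBS replicate 2, 8 did with a median of 0.02, without liraglutide replicate 2 the median was 0.04, and with DESeq2 it was 0.04. The glutathione transferase Gstm1 had 294, 297 and 302 against 263, 253 and 236 CPM (0.26, SE 0.0813, edgeR adjusted p = 0.723), and the quinone reductase Nqo1 52.1, 47.1 and 43.8 against 43.2, 37.5 and 37.1 CPM (0.29, SE 0.102). Of 16 apoptosis genes 10 lay above 0 and 6 below, with a median of 0.07. At an unadjusted p under 0.05, 2 were higher and 1 lower. Without overlap was 1 of the 16, beside 9.69% of all tested genes. It was the death receptor gene Fas, with 52.5, 53.8 and 67.5 against 46.4, 43.1 and 46.3 CPM (0.37, SE 0.0997, edgeR adjusted p = 0.558). Gstm1, Nqo1 and Fas did not overlap between groups.

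Liraglutide replicate 3 was also the library with the most heat shock mRNA. Hspa1a, a heat-induced chaperone of the HSP70 family, had 506, 634 and 1299 CPM under liraglutide against 770, 455 and 556 under PBS, and its near-identical neighbour Hspa1b, with which it may share reads, 501, 640 and 1344 against 770, 530 and 637 CPM. The 13 heat shock genes summed to 13560, 14556 and 18523 against 15344, 14663 and 14660 CPM. With all libraries 8 lay above 0, and without liraglutide replicate 3 only 2 did. The same library had the highest cytokine sum and the lowest cardiomyocyte sum among the 6, and its part in other results was tested only by leaving it out.

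**Figure D4:**
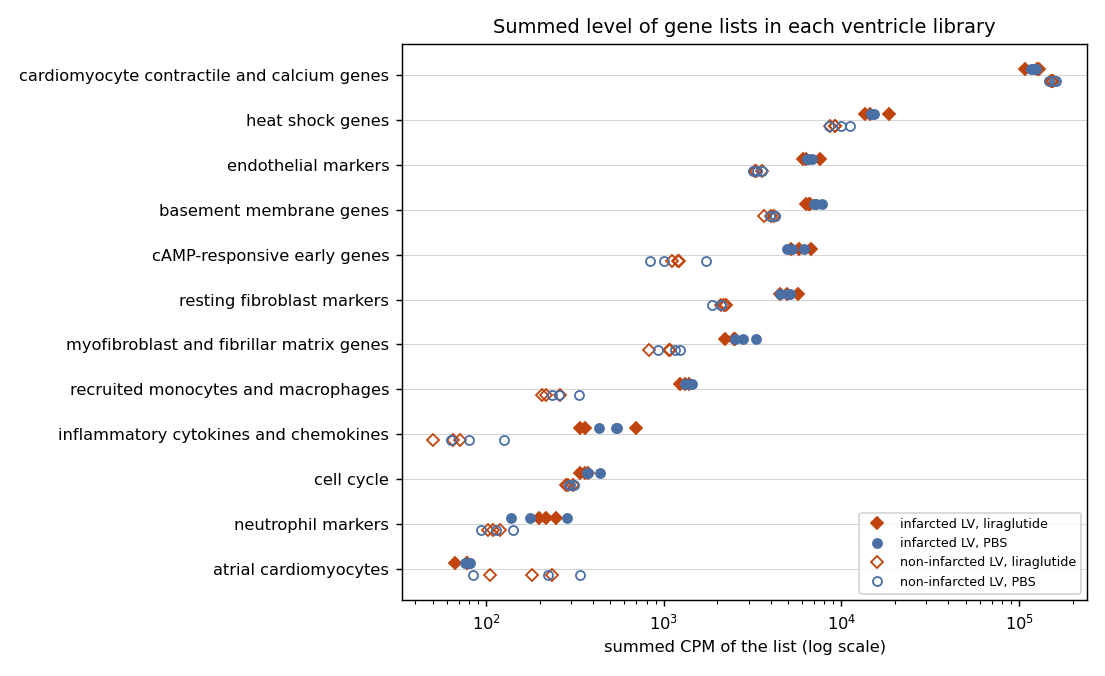
Summed CPM of 12 gene lists (horizontal axis, log scale) in each of the 12 LV libraries, with infarcted libraries filled and non-infarcted open, and liraglutide as diamonds and PBS as circles. For cytokines and recruited macrophage markers the 2 regions are far apart while the treatments overlap within the infarct, for neutrophil markers the regions also overlap (137 CPM in an infarcted and 141 in a non-infarcted PBS library), and for basement membrane genes the filled diamonds (6296 to 6652) lie below the filled circles (6997 to 7770).

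The non-infarcted LV of the same treatments gave a second view of the leading genes from other libraries. There too 0 of 12919 genes (0%) passed with edgeR, 561 (4.34%) had an unadjusted p under 0.05, 248 higher (1.92%) and 313 lower (2.42%), and 49.4% of fold changes were above 0. Of the 12 genes higher in the infarct all 12 had a fold change above 0 in non-infarcted LV, 7 with an unadjusted p under 0.05. Of the 12 lower genes 11 lay below 0 there, 5 with an unadjusted p under 0.05, and the exception was Nupr1 (0.10). With each non-infarcted library left out in turn, 20 to 23 of the 24 kept the direction. Mtus2 had a log2 fold change of 0.50 in non-infarcted LV, Ano10 0.51, Gbp6 0.51, Fscn1 -0.35 and Ift122 -0.37. Ifitm1 (0.05) and Mest (-0.04) were near 0 there.

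The shared direction was also counted beyond the leading genes. Of the 312 genes with an unadjusted p under 0.05 and higher in the infarct, 294 were tested in non-infarcted LV and 224 (76.2%) lay above 0, 50 of them with an unadjusted p under 0.05. Of the 369 lower genes 362 were tested and 298 (82.3%) lay below 0, 64 with an unadjusted p under 0.05. The share of all tested genes with the same sign in both regions was not computed. These percentages and the counts for the leading genes are thus not shown to be particular to genes with a small p. Among the genes with the same direction were Mki67 (-0.81 in the infarct and -0.69 outside it), the collagen chaperone Serpinh1 (-0.52 and -0.45), Map1b (-0.34 and -0.39), Acaa2 (-0.25 and -0.25) and Gstm1 (0.26 and 0.22). Of the higher and lower genes of the infarct, 58.5% and 52.9% had the same direction in the atria. There 1 of 13530 genes (0.00739%) passed, 929 (6.87%) had an unadjusted p under 0.05 and 49.4% lay above 0. The ventricle regions may come from the same hearts, since infarcted and non-infarcted libraries with the same number in the labels deviated together from their group means (correlations across genes of 0.0895 to 0.15 for 6 pairs, against -0.134 to 0.0191 for other pairs of a treatment). The labels do not say so, and the part of shared animals in the result was not tested.

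**Figure D5:**
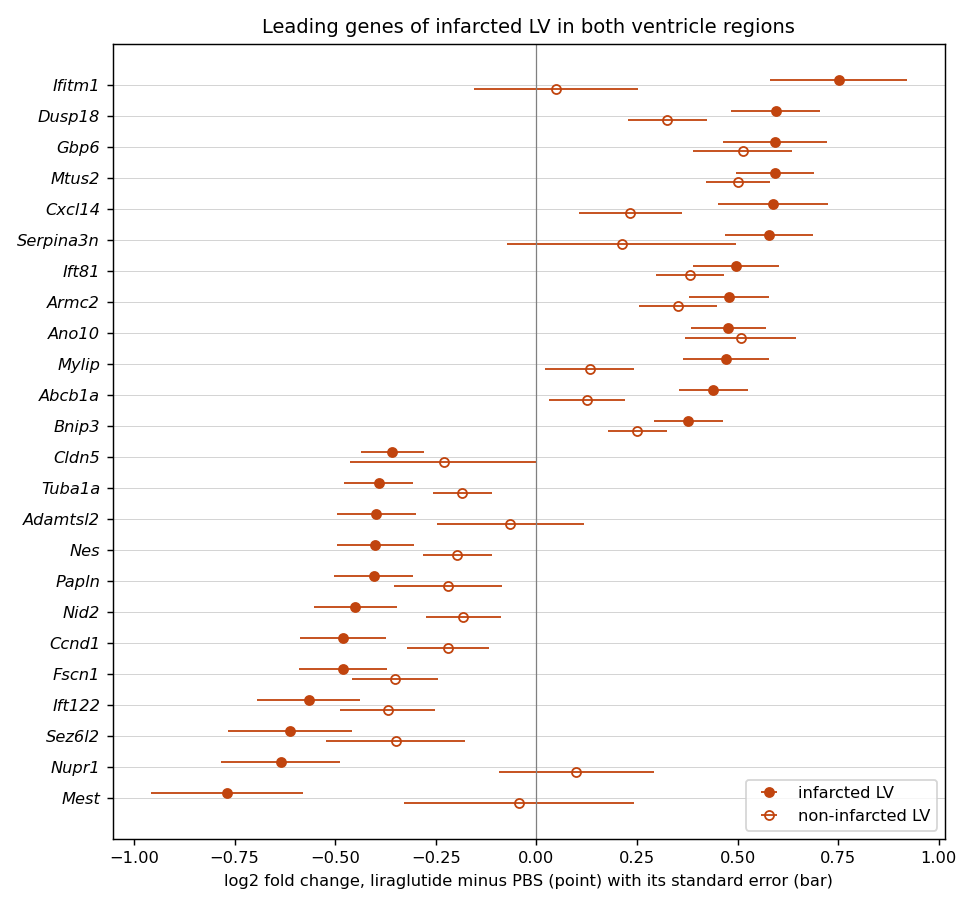
Log2 fold change of liraglutide minus PBS (points) with its standard error (bars) for the 24 leading genes of the infarct, in infarcted LV (filled) and non-infarcted LV (open). The genes were chosen on the filled points, and the open points lie on the same side of 0 for 23 of 24, mostly nearer to 0.

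The effect of liraglutide in the infarct did not differ detectably from that in non-infarcted LV. In the contrast of the 2 effects 0 of 13325 genes (0%) passed with edgeR, and 255 (1.91%) had an unadjusted p under 0.05. Among the genes with the smallest p, Cpt1c, a carnitine palmitoyltransferase of the endoplasmic reticulum, had 4.15, 4.74 and 4.75 CPM under liraglutide against 5.38, 8.35 and 6.77 under PBS in the infarct. Outside the infarct it had 3.64, 2.99 and 3.00 against 2.12, 2.54 and 2.16 CPM, a difference of effects of -1.06 (SE 0.292). The treated group was thus below its controls in one region and above in the other. Hmcn1, the matrix protein hemicentin, had 36.3, 29.8 and 32.8 against 39.9, 41.6 and 44.2 CPM in the infarct and 44.7, 30.2 and 32.1 against 33.1, 30.8 and 27.0 outside it (-0.53, SE 0.168).

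Against the atria the infarct differed in 1 of 13748 genes (0.00727%), and 738 (5.37%) had an unadjusted p under 0.05. For Irs2 the atrial libraries had 111, 93.9 and 125 CPM under liraglutide against 53.0, 52.4 and 50.5 under PBS, while the infarct values given above nearly met. The effect in the infarct minus that in the atria was -0.99 on the log2 scale (SE 0.132, edgeR adjusted p = 0.0300). In non-infarcted LV it had 33.0, 62.5 and 59.2 CPM under liraglutide against 41.9, 36.8 and 75.8 under PBS, which overlapped. The call was lost without each infarcted library in turn, without atrial PBS replicate 2 or 3, with all 18 libraries in the fit and with the number in the labels as a block (edgeR adjusted p from 0.0529 to 0.635), while the difference stayed between -1.06 and -0.93 in all settings run. Ccn2, a matricellular protein induced by stretch and TGF-beta, came next: 785, 954 and 971 against 1001, 906 and 930 CPM in the infarct and 2258, 1633 and 1770 against 682, 577 and 809 in the atria, with a difference from the atrial effect of -1.62 (SE 0.237, edgeR adjusted p = 0.0534). Mustn1, a small nuclear protein of muscle, had 16.6, 15.5 and 17.7 against 14.6, 14.02 and 13.1 CPM in the infarct and 18.1, 16.1 and 18.4 against 30.7, 30.2 and 29.5 in the atria (0.93, SE 0.152, edgeR adjusted p = 0.0928).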

How the data were processed

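Gene-level mRNA counts of 18 libraries were read from 1 deposited table of 25230 gene symbols. Per the values these are raw counts; per the labels, stranded libraries of polyadenylated RNA were made from TRIzol extracts, and the submitters' processing notes name STAR (2.7.9a) along with DESeq2 and the mm10 build. The sources used here do not give the counting tool, strand setting or gene annotation, so overlapping genes may share reads.

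The 6 infarcted LV libraries were fitted alone in R 4.3.3 with edgeR 4.0.16 (filterByExpr, TMM factors, robust quasi-likelihood F tests, Benjamini-Hochberg adjustment, threshold 0.05), which left 12988 genes. Effects were contrasted between regions in fits of 12 libraries. A standard error (SE) was obtained by dividing the size of the log2 fold change by the root of its F statistic. Code was tested on simulated data. Replicate libraries were checked for duplicates and none was found. Named genes are, among genes with a mean count of 50 or more, non-overlapping groups and no unnamed models, the 12 of smallest p per direction; members of each list by position and by smallest p; and the 5 leading each contrast and direction. Others (Areg, Dusp1, Prkaca, Serpinh1, Cxcl1, Ide, Sparc, Timp1, Thbs2, Col3a1, Birc5, Tuba1b, Tubb2b, Slc25a20, Hadh and Acadvl) were chosen after their values were seen. Gene positions come from GENCODE vM21 (GRCm38). The members and lists were chosen with earlier results of these data known, so lists are described by counts and medians, with no set test. Alternatives were DESeq2 1.42.0, limma 3.58.1 voom with quality weights, RLE factors, no filter, another filter, more libraries in the fit, a replicate block, a cardiomyocyte covariate and each library left out.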

Additional observations from a re-analysis of the deposited data

Results flagged for a closer look

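Irs2 was flagged because a test of the difference itself separated its response to liraglutide in infarcted LV from that in the atria. The log2 effect in the infarct minus the atrial one was -0.985 (SE 0.132, edgeR adjusted p = 0.0300), with 3 libraries per group. As said above, that call was lost in several settings, among them each omission of an infarcted library (edgeR adjusted p from 0.0529 to 0.635 where lost). Within the infarct the groups stood at 208, 218 and 238 against 202, 194 and 186 CPM. In the atria they stood at 111, 93.9 and 125 against 53.0, 52.4 and 50.5 CPM. Depth differed between the regions for liraglutide, with 8211804 to 11181101 counts in the infarct and 13849938 to 21853482 in the atria. For PBS the depths overlapped, with 4280459 to 10772531 counts in the infarct and 6262832 to 18839472 in the atria. The part of depth in the result was not tested.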

How the results depend on the processing

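The count of 0 genes for liraglutide in infarcted LV became 1 with DESeq2 and 1 with a cardiomyocyte marker covariate (Mtus2 both times) and 35 without a filter on low counts, all of which the filtered fit had tested too (mean counts of 68.8 to 9900). It was 0 to 3 with single libraries left out. The 3 came without liraglutide replicate 3 (Mtus2, Ide and Dusp18). Voom, RLE factors, a filter on CPM, 12 or 18 libraries in the fit and the replicate block gave 0. Replicate numbers did not pair treated and control libraries (correlations of deviations -0.0573, -0.111 and -0.0669 for same numbers). Between infarcted and non-infarcted LV 1 of 6 pairs missed 0.1, though every library correlated best with its own number. For the effect in the infarct minus the atria the count of 1 became 26 with DESeq2, 2 without a filter, 0 with 18 libraries, 0 with the replicate block, and 0 to 77 with single libraries left out, 77 coming without atrial liraglutide replicate 3 and 11 without atrial liraglutide replicate 2. The contrast with non-infarcted LV stayed at 0 calls in all settings run. Of 254 named genes 71 changed sign in at least 1 setting. None of the 24 leading genes did, but their choice for non-overlapping groups largely fixed the sign in advance. Leaving out non-infarcted libraries was added after seeing the data. Depth limits genes near 3 counts (0.268 to 0.701 CPM), such as Glp1r, Areg and Saa3, and with 3 libraries per group changes under about 1.17-fold lie within the median interval.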

Other observations

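Among genes with a mean count of 50 or more, those with the largest spread between replicate infarcts were of mixed kinds. Slc15a2, a peptide transporter, had 13.6, 1.61 and 34.5 CPM under liraglutide against 7.18, 21.2 and 17.5 under PBS. Eps8l1, an actin regulator of epithelia, had 10.8, 3.76 and 10.2 against 0.897, 1.30 and 8.88 CPM. The phosphate hormone gene Fgf23 had 1.75, 16.3 and 5.36 against 8.67, 11.3 and 7.48 CPM. In each case libraries of the same treatment differed by more than the treatment means. Dbp, an output gene of the circadian clock, had 4.79, 10.6 and 30.8 CPM under liraglutide against 18.1, 22.3 and 21.03 under PBS. Cyp26b1, which clears retinoic acid, had 37.1, 18.7 and 20.1 against 9.37, 7.52 and 29.9 CPM. Neutrophil genes (S100a8, S100a9, Il1r2) and haptoglobin (Hp) were also in this group.

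Ide, the insulin-degrading enzyme, had 121, 147 and 69.2 CPM under liraglutide against 78.2, 77.3 and 83.9 under PBS (log2 fold change 0.53, SE 0.310, edgeR adjusted p = 0.970). Liraglutide replicates 1 and 2 lay above all PBS libraries and replicate 3 below them. In non-infarcted LV its fold change was 0.56 with an unadjusted p of 0.135. Clock genes also varied with single libraries: without liraglutide replicate 3, 13 of 16 lay below 0 with a median of -0.29 and 10 had an unadjusted p under 0.05, against a median of -0.11 and 1 with it, and without liraglutide replicate 1, 8 lay on each side. The time of day of tissue collection is not given in the sources used here.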
